A study of Homo sapiens with 12 samples.

Results

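The very long protein-coding genes were defined by a rule on the annotation alone, but the class was chosen with earlier results of these data known. They are the genes that the deposited table names protein_coding and whose end lies 500000 bases or more after their start on GRCh38. This held for 317 of 19951 protein-coding genes (1.59%), of 58735 genes in the table. The median span was 726 kb, and RBFOX1, which encodes a splicing regulator, was the longest at 2474 kb. Just inside the limit lay AFF2 with 500044 bases, SPOCK3 with 501412 and KCNAB1 with 501437, and just outside lay DIAPH3 with 498404, CACNA2D1 with 497354 and RPS6KA2 with 497087. The RNA came from a human lens epithelial line that has been immortalized, HLE-B3, in 4 groups of 3 replicates. WT and ATG7 KO cells were either collected untreated, labelled 0 h, or after 200 μM H2O2 for 12 h. ATG7 encodes an enzyme needed to form autophagosomes, and the study made its KO cells with CRISPR/Cas9 and picked single clones. Which clone was sequenced is not given in the sources used here, so a difference between clones and the loss of ATG7 cannot be told apart, and neither can H2O2 and 12 h of further culture.

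In a gene of this size introns make up nearly all of the span, and RNA polymerase II needs hours to travel from the start to the end. Such transcripts rely on elongation factors, on topoisomerases that relieve the twist ahead of the polymerase, and on accurate splicing over long introns. The class is best known from neurons, where it supplies adhesion molecules, channels and synaptic scaffolds. In epithelial cells its members include polarity proteins, cytoskeletal linkers, receptor phosphatases and kinases, and several of them are hosts of common fragile sites, which break when replication is slowed.

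The promoters of 4 genes are shown because these genes mark the ends of the H2O2 response of WT cells. UTRN and NBEA had the lowest fold changes among genes named by the rule, MAST4 and SUGCT the highest. Each sequence is the 300 bases around the RefSeq start (250 before and 50 after it) on GRCh38.p14, plus strand, printed 5′ to 3′. Capitals mark matches to the motifs that were searched.
UTRN chr6:144285085-144285384: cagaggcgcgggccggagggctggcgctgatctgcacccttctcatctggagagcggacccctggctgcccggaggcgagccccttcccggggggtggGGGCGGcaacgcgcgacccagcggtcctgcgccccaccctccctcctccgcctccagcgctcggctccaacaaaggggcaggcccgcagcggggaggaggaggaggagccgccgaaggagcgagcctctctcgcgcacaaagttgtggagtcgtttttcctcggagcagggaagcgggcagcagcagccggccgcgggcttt
NBEA chr13:34942020-34942319: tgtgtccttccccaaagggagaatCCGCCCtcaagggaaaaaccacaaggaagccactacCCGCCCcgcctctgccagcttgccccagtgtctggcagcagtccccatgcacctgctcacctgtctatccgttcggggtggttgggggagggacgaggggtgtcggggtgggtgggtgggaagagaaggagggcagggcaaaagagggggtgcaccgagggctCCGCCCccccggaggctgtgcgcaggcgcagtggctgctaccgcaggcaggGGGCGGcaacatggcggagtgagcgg
MAST4 chr5:66596143-66596442: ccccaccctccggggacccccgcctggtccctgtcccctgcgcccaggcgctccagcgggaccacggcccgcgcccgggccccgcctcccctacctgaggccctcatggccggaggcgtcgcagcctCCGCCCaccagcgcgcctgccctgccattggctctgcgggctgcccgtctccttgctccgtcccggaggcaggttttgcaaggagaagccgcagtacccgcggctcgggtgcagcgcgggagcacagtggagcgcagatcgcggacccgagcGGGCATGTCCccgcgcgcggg
SUGCT chr7:40134755-40135054: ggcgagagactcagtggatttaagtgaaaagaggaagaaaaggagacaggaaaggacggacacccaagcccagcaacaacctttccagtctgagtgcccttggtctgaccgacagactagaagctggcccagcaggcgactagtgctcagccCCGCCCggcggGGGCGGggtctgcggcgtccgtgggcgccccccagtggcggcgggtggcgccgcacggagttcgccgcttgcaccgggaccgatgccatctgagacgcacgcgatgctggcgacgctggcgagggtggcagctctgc
The UTRN start in RefSeq lies 366 bases from the gene start in the deposited table, against 17, 32 and 28 bases for NBEA, MAST4 and SUGCT. All 4 windows hold a GC box (GGGCGG on either strand), 1 in UTRN, 4 in NBEA, 1 in MAST4 and 2 in SUGCT, and the GC content was 72.3%, 67.3%, 76.3% and 66%. MAST4 also holds 1 match to the p53 element unit, which does not overlap its GC box. Promoters were found for 257 of the 317 genes. A GC box was present in 52.5% of them and in 44.6% of all 27305 RefSeq promoters, and their median GC content was 64.3% against 58.3%. The antioxidant response element core (TGACNNNGC) was present in 16.7% against 13.6%, the p53 element unit in 9.73% against 6.54%, the E box (CACGTG) in 7% against 7.43%, the TATA box (TATAAA) in 7.78% against 12% and the AP-1 element (TGAGTCA) in 1.95% against 4.92%. Among the 94 matched genes that were lower in WT cells after H2O2, 48.9% (46) had a GC box and 12.8% (12) a p53 element unit. The 24 matched genes that were higher had them in 58.3% (14) and 4.17% (1). The antioxidant response element core was present in 18.1% of the lower and 8.33% of the higher genes (17 and 2). For the AP-1 element it was 1.06% and 4.17% (1 and 1), for the TATA box 7.45% and 8.33% and for the E box 8.51% and 8.33%. Whether the sets differ was not tested. These matches describe letters in the window and do not show binding.

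Many of the genes were silent or nearly so in these cells. No read was counted in any library for 26 of them, and 78 had under 10 reads over all libraries together. In the fit of all 12 libraries 190 passed the filter on low counts, which is 59.9%, against 67.6% of other protein-coding genes, and 30 of these had a group with a mean under 10 reads. Those that passed had a median mean level of 0.95 FPKM, against 5.56 FPKM for the others. A mean of 1 FPKM or more was reached by 94 genes and 10 FPKM by 9. Their exons were long as well, with a median exonic length of 10032 bases against 5074 for other genes tested, but covered a median of only 1.21% of the span. Another gene overlapped 309 of the 317, on the same strand for 237, and 77 overlapped another protein-coding gene. Reads in such overlaps could be assigned to either gene.

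Library totals were 15602183 to 17659496 reads on genes, and the long genes received 62412 to 108824 of these. The mRNA of ATG7 was no lower where the label reads ATG7 KO, with 2.55 ± 0.313 FPKM (SD, n = 3) in untreated WT and 3.55 ± 0.205 FPKM in untreated ATG7 KO cells, so its counts cannot check the label. Of 18 lens markers 11 had a mean under 0.1 FPKM, among them the crystallin gene CRYAA, and 3 reached 1 FPKM, with VIM and CDH2 the highest. PAX6 had 1.27 ± 0.0741 FPKM in untreated WT cells. Of 10 fibroblast markers 6 reached 1 FPKM and 2 were under 0.1 FPKM, with COL1A1 at 626 ± 17.2 FPKM in untreated WT cells. A mean of 1 FPKM was reached by 1 of 12 neuron, 1 of 8 immune and 0 of 5 endothelial markers. Untreated ATG7 KO replicate 1 stood apart. Its counts had a mean r of 0.974 with the other libraries of its group, against 0.983 for those and 0.991 to 0.992 in the other groups. Genes with short exonic length were 0.55 above and those with long exonic length 0.353 below their mean log2 level in this library. This shift moves with every comparison of untreated ATG7 KO cells below. Counts over the long genes are given with and without this library. Values of single genes use all libraries unless stated, and many were not repeated here without it.

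In untreated WT cells 0.622%, 0.623% and 0.624% of reads fell on the 317 genes. After H2O2 the share was 0.409%, 0.4% and 0.404% in WT cells. It was 0.384%, 0.597% and 0.609% in untreated ATG7 KO cells and 0.47%, 0.479% and 0.481% in treated ATG7 KO cells. The share was thus lower after H2O2 in both genotypes except against untreated ATG7 KO replicate 1, which lay below all treated libraries. Since RNA was bulk, fewer cells that express a gene and less RNA of it per cell cannot be told apart here or in any result that follows.

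**Figure D1:**
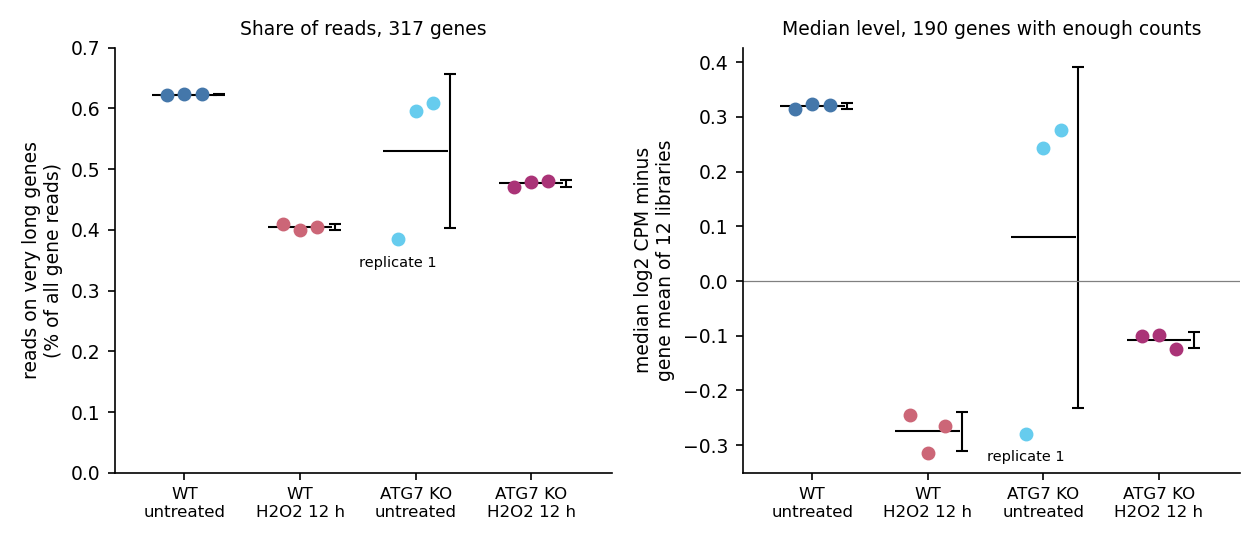
Left, percentage of gene reads that fell on the 317 very long genes in each of 12 libraries. Right, median over 190 of these genes of the log2 CPM (reads scaled to library size) minus the gene's mean over all libraries. Points are libraries, bars are group means and whiskers the SD (n = 3). WT libraries lie near 0.623% untreated and near 0.404% after H2O2, and untreated ATG7 KO replicate 1 lies at 0.384%.

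The first comparison asked how the genes respond to H2O2 in WT cells. Of 180 genes tested, 108 (60%) fell and 27 (15%) rose at an adjusted p under 0.01 by the quasi-likelihood test of edgeR, adjusted after Benjamini and Hochberg. Over all 15913 genes tested 30.1% were lower and 30.9% higher. Among other protein-coding genes in the same classes of mean FPKM, weighted to the members' classes, 28.7% were lower and 29.2% higher. The median log2 fold change was -0.63, with quartiles of -1.24 and -0.09, against -0.0053 for all genes and 0.14 for the FPKM classes. When a log2 fold change beyond 1 and a level above 1 FPKM were also required, 41 genes fell and 5 rose, a rule that called 5.24% of all genes lower and 7.3% higher.

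The lowest FPKM classes are hard to compare, since a weak gene can pass the filter through the group in which it is high. Other protein-coding genes under 0.1 FPKM that passed had a median log2 fold change of 1.73, while the 17 long genes there had -0.44. Among the 94 long genes with a mean of 1 FPKM or more, all of which were tested in every comparison, 68 fell and 14 rose, with a median of -0.66. The 10623 other protein-coding genes at that level were lower in 36.3% and higher in 33.5%, with a median of -0.031. The excess of lower genes was present in the middle classes. From 1 to 2 FPKM 24 of 28 long genes were lower (85.7%, others 39.8%), from 2 to 5 FPKM 26 of 39 (66.7%, others 43.3%) and from 5 to 10 FPKM 14 of 18 (77.8%, others 39.7%). Above 10 FPKM the few long genes had no common direction, with 3 of 7 lower and a median of 0.0096 in the class from 10 to 20 FPKM.

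Among genes with a mean above 1 FPKM in at least 1 group, from which genes are named here, UTRN had the largest fall. It encodes utrophin, which ties the actin cytoskeleton to the membrane through dystroglycan, at chromosome 6, 144285701 to 144853034. UTRN stood at 14.8, 14.2 and 15.7 FPKM in untreated WT libraries and 3.6, 3.06 and 3.81 FPKM after H2O2. The groups did not overlap, which the rule for naming genes requires, and the level fell 4.28-fold (log2 fold change -2.10, standard error 0.06, adjusted p = 3.57e-27). NBEA and LRBA, large scaffold proteins of vesicle trafficking, were close behind. NBEA (chromosome 13, 34942287 to 35673022) had 1.27, 1.24 and 1.25 FPKM untreated and 0.331, 0.31 and 0.282 FPKM after H2O2, which is -2.03 on the log2 scale (standard error 0.13, adjusted p = 3.03e-18). LRBA (chromosome 4, 150264531 to 151015727) went from 4.18, 4.1 and 4.15 FPKM to 1, 0.951 and 1.09 FPKM, also -2.03 (standard error 0.07). Treated and untreated libraries were far apart for both, and each of these genes overlaps another protein-coding gene.

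TENM2, a teneurin that bridges cells across contacts, was the most abundant gene of this group. It lies on chromosome 5 from 167284799 to 168264157 and had 20.3, 20.1 and 19.9 FPKM untreated and 5.62, 4.8 and 5.37 FPKM after H2O2. Its level fell 3.83-fold (log2 fold change -1.94, standard error 0.05, adjusted p = 2.01e-33). PARD3B, a cell polarity protein of 1074 kb, fell by 1.92 on the log2 scale, and so did RBMS3, an RNA-binding protein of 1436 kb. VPS13B, a lipid transfer protein of the Golgi, fell by 1.78 and SDK1, an immunoglobulin-type adhesion protein, by 1.74. That all 8 had treated libraries below every untreated library follows from the rule by which these genes were named.

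MAST4 showed the largest rise among genes with a mean above 1 FPKM in at least 1 group. It encodes a microtubule-associated serine/threonine kinase at chromosome 5, 66596361 to 67169595. MAST4 stood at 0.798, 0.874 and 0.718 FPKM untreated and 6.67, 6.33 and 5.82 FPKM after H2O2, 7.83-fold higher (log2 fold change 2.97, standard error 0.07, adjusted p = 1.09e-34). SUGCT, a mitochondrial CoA transferase on chromosome 7 from 40134977 to 40860763, rose from 0.623, 0.856 and 0.985 FPKM to 2.44, 3.34 and 3.09 FPKM (log2 fold change 1.83, standard error 0.18, adjusted p = 3.01e-12). MAST4 spans 573 kb and SUGCT 726 kb, between UTRN with 567 kb and NBEA with 731 kb, and TENM2 spans 979 kb. CREB5, a bZIP transcription factor, rose by 1.31 and EPHB1, an ephrin receptor kinase, by 1.12 on the log2 scale. IQCJ-SCHIP1, whose reads can belong to the IQCJ and SCHIP1 genes it spans, rose by 1.07. Smaller rises were seen in the zinc finger factor HIVEP3 (0.90), the microtubule-binding NAV3 (0.65) and AFF3 (0.56), a relative of elongation complex scaffolds.

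Of the 8 functional lists, which were chosen with earlier results of these data known, the adhesion and guidance genes had the lowest median. Of 28 tested 19 fell and 4 rose, with a median log2 fold change of -0.94. Over all genes tested 30.1% were lower and 30.9% higher, and these shares apply to each list that follows. TENM3 went from 10.9, 11.2 and 11.5 FPKM to 4.84, 5.24 and 4.96 FPKM, while NRG1, the neuregulin growth factor, rose from 3.9, 4 and 3.89 FPKM to 5.72, 6.39 and 5.12 FPKM. Among 31 tested genes of cytoskeleton and scaffolds 21 fell and 4 rose (median -0.81). In this list LPP, a focal adhesion protein, fell by 1.32 on the log2 scale and ERC1, a cortical scaffold, by 0.26, whereas PARD3, the partner of atypical protein kinase C in polarity, had 0.04 (adjusted p = 0.486). The change of ERC1 was 0.044 with a correction for exonic length.

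Signalling and trafficking genes were similar, with 19 of 27 lower, 3 higher and a median of -0.89, where 30.1% of all genes were lower and 30.9% higher. PRKCA, protein kinase C alpha, went from 22.3, 21.1 and 23.6 FPKM to 9.17, 9.78 and 9.06 FPKM, with no overlap. DOCK1, an activator of Rac, fell by 1.08, EXOC4, a subunit of the exocyst, by 1.26 and CDK14, a Wnt-linked kinase, by 0.90. Of 12 tested metabolic and turnover genes 9 fell and 0 rose (median -0.62). Here CDKAL1, a tRNA-modifying enzyme, fell by 0.64 and FBXL17, a ubiquitin ligase subunit, by 0.77. Matrix and glycan genes had 9 of 17 lower and 2 higher (median -0.47). GPC6, a glypican, fell by 1.46 and SPOCK1, a secreted proteoglycan, by 0.47, while CPQ, a secreted peptidase, had -0.21 (adjusted p = 0.0424).

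Transcription and RNA-binding genes were more evenly divided, with 8 of 18 lower, 7 higher and a median of -0.34. The shares of all genes, 30.1% lower and 30.9% higher, apply to each list here. RUNX1, a transcription factor of 1217 kb, rose from 11.8, 11.6 and 11.2 FPKM to 16.6, 15.7 and 14.7 FPKM. CAMTA1, a calmodulin-binding activator, rose by 0.26, and SMYD3, a methyltransferase, and MECOM, a zinc finger factor, fell by 0.62 and 0.65. Channels, transporters and receptors had 3 of 12 lower and 1 higher (median -0.29). SLC9A9, an endosomal sodium-proton exchanger, fell by 1.67 and SLC4A4, a sodium bicarbonate cotransporter, by 0.63, while the potassium channel genes KCNQ5 and KCNMA1 had -0.18 and 0.14 (adjusted p = 0.0748 and 0.064). Of 6 receptor phosphatases 3 were tested. PTPRM and PTPRG fell by 0.88 and 1.12, PTPRK rose by 0.17, and PTPRN2 had at most 0.0481 FPKM in any library. Among 27 tested genes of fragile sites 17 fell and 3 rose (median -0.85), and genes in no list had 18 of 32 lower and 5 higher (median -0.42). Whether the lists differ from each other was not tested.

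**Figure D2:**
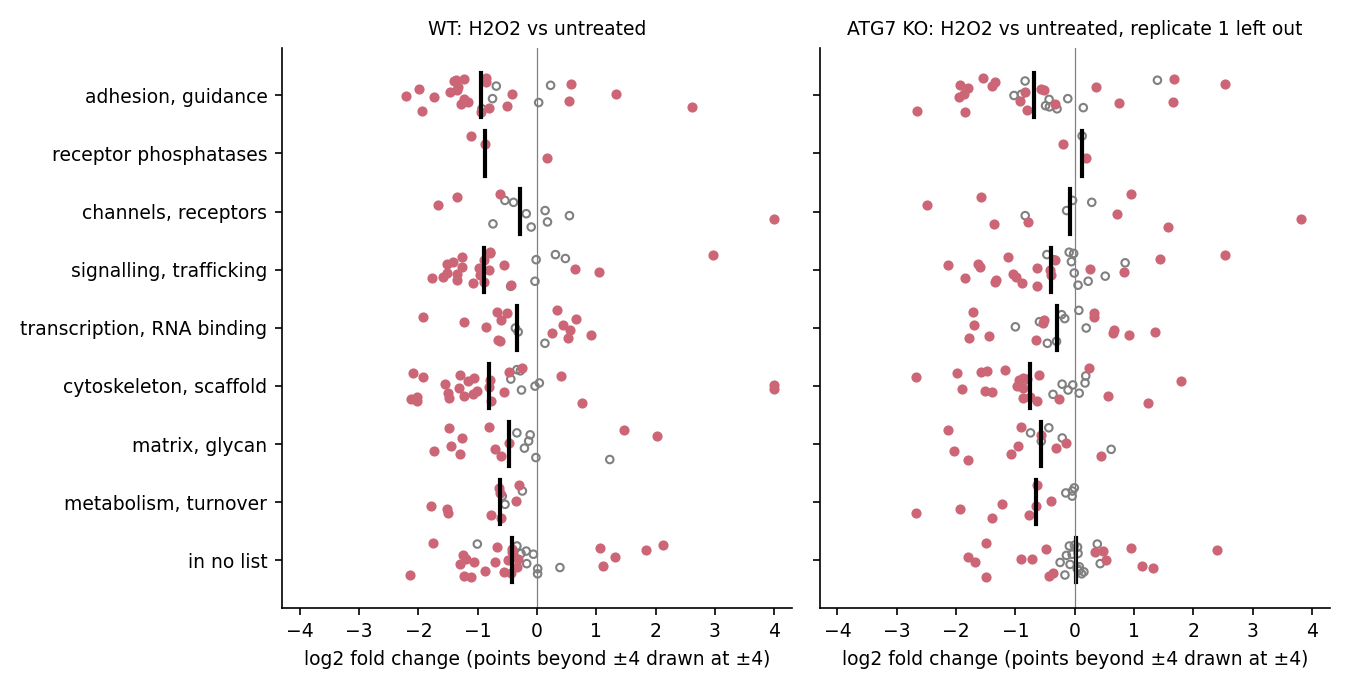
Log2 fold change with H2O2 of each very long gene tested, by functional list, in WT cells (left) and in ATG7 KO cells without untreated replicate 1 (right). Filled points passed an adjusted p of 0.01, open points did not, and black bars are list medians. The WT medians of adhesion, signalling and cytoskeleton genes lie at -0.94, -0.89 and -0.81, those of channels and of transcription genes at -0.29 and -0.34.

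Genes below the limit were read in the same way, by span. The median log2 fold change was 0.22 for genes under 10 kb, -0.05 for 25 to 50 kb, -0.19 for 100 to 200 kb and -0.42 for 200 to 500 kb, and reached -0.63 for 500 to 1000 kb and -0.57 above 1000 kb. Within the 94 long genes of 1 FPKM or more, span and log2 fold change had a Pearson r of -0.036, and over 10717 protein-coding genes of that level an r of -0.252. These correlations are across genes, which share libraries and are not independent replicates. Exonic length moved with the response as well, with an r of -0.241 over the same genes, so classes of exonic length were separated. Among genes with 9000 exonic bases or more the median was -0.13 under 50 kb of span, -0.30 from 50 to 500 kb and -0.63 at 500 kb or more (113 genes). From 3000 to 6000 exonic bases it was 0.05, -0.08 and -0.54 (18 genes). With a correction of each library for exonic length the median of the 180 genes was -0.47.

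**Figure D3:**
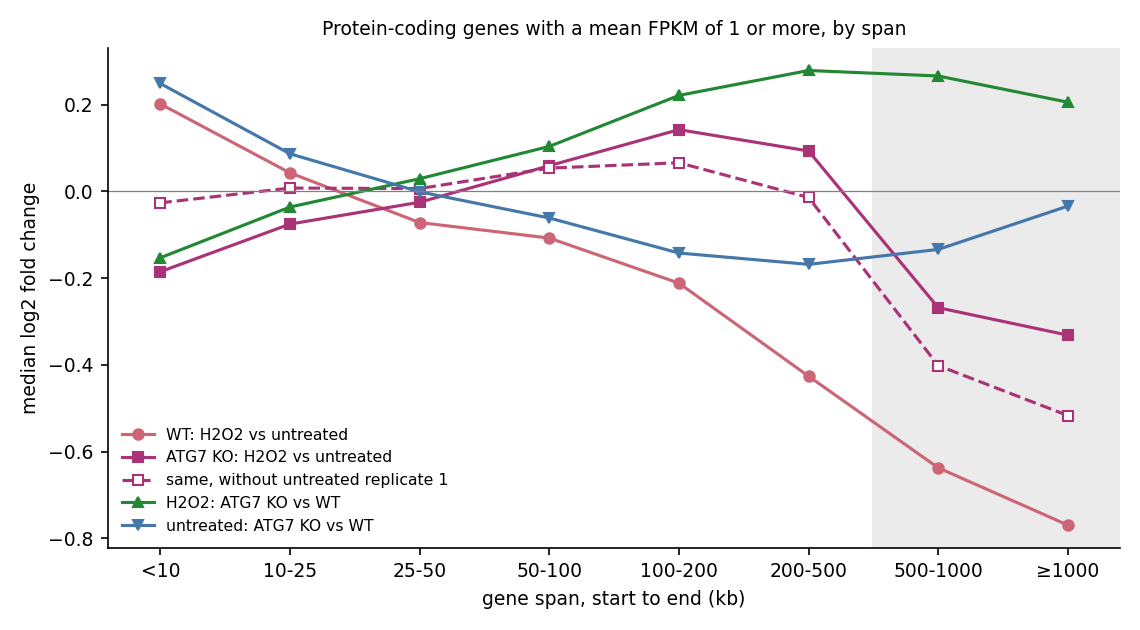
Median log2 fold change of protein-coding genes with a mean of 1 FPKM or more in 8 classes of gene span (kb). Lines are the 4 comparisons of groups, with the ATG7 KO response also drawn without untreated replicate 1, and the shaded classes are the very long genes. In WT cells the medians of the shaded classes are -0.64 and -0.77. In ATG7 KO cells without that library, the classes under 500 kb lie between -0.03 and 0.07 and the shaded ones at -0.40 and -0.52.

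Genes of transcription elongation, from a list of polymerase, elongation, topoisomerase and termination factors, had 15 of 48 higher, 14 lower and a median of -0.03 in WT cells, near the shares of all genes (30.9% higher and 30.1% lower). TOP2B and TOP2A, which pass DNA strands to relieve twist, went from 31.4 ± 0.48 to 18.2 ± 0.783 FPKM and from 113 ± 5.16 to 35.5 ± 3.16 FPKM (SD, n = 3). TOP1 rose from 35.6 ± 1.86 to 46.6 ± 1.68 FPKM. CDK12, a kinase of the elongating polymerase, went from 9.37 ± 0.118 to 6.93 ± 0.361 FPKM, and ELL2, an elongation factor, from 24.6 ± 0.131 to 36.8 ± 1.36 FPKM. The mostly short stress and immediate early genes went the other way from the long genes. All 37 tested were higher after H2O2 in WT cells, with a median log2 fold change of 2.43, for example GDF15 with 7.30, CDKN1A with 4.96 and ATF3 with 4.28. These list members were chosen with their results known.

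In ATG7 KO cells the response depended on 1 library. With all libraries 39 of 179 long genes fell and 18 rose, where 12.4% of all 15475 genes were lower and 13.6% higher, and the median log2 fold change was -0.27. Without untreated ATG7 KO replicate 1, 86 of 183 fell and 32 rose, where 28.6% of all 16002 genes were lower and 29.8% higher. The median was then -0.40, against -0.003 for all genes and -0.0077 for other genes in the same FPKM classes. Among the 94 genes of 1 FPKM or more 22 fell and 9 rose with all libraries, and 55 fell and 21 rose without that library, where other protein-coding genes were lower in 33.3% and higher in 36%. Every span class under 500 kb had a median between -0.06 and 0.05 without that library, and the 2 classes above had -0.40 and -0.45.

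DPYD, which starts the breakdown of uracil and thymine, had the lowest log2 fold change of all tested long genes in ATG7 KO cells. The gene is at chromosome 1, 97077743 to 97995000. DPYD stood at 4.12, 4.11 and 4.04 FPKM in untreated ATG7 KO libraries and 0.565, 0.623 and 0.736 FPKM after H2O2, a fall of 6.39-fold (log2 fold change -2.68, standard error 0.13, adjusted p = 2.42e-05). In WT cells it went from 4.18, 4 and 3.82 FPKM to 1.46, 1.38 and 1.39 FPKM. All 3 untreated ATG7 KO libraries were alike for this gene, replicate 1 included. SLC9A9 had 1.13, 1.47 and 1.33 FPKM untreated and 0.272, 0.164 and 0.31 FPKM after H2O2 (log2 fold change -2.39, adjusted p = 0.000517), and CEP112, a centrosomal protein, 1.99, 1.84 and 1.95 against 0.402, 0.558 and 0.485 FPKM (adjusted p = 0.000104). Other genes were low in replicate 1 already before treatment. TENM2 had 5, 16.1 and 15.6 FPKM in untreated ATG7 KO libraries and 2.28, 2.76 and 2.57 FPKM after H2O2, a log2 fold change of -2.28 (adjusted p = 0.00499) with and -2.66 without replicate 1. PARD3B fell by 2.38, NEGR1, an adhesion protein, by 1.77, TRAPPC9, a subunit of a trafficking complex, by 1.76 and ADAMTSL1, a secreted matrix protein, by 1.75. UTRN, with 4.67, 12.5 and 12.3 FPKM untreated and 6.36, 6.21 and 6.6 FPKM after H2O2, passed the test only without replicate 1 (log2 fold change -0.63, adjusted p = 0.183 with, and -0.97, adjusted p = 3.66e-69 without). SPOCK1 and PTPRM had values near 0 with all libraries (0.0035 and 0.0058) and fell by 0.15 and 0.20 without it.

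MAST4 rose in ATG7 KO cells too, from 0.892, 1.36 and 1.56 FPKM to 8.57, 8.86 and 8.39 FPKM (log2 fold change 2.75, standard error 0.21, adjusted p = 0.000111). SUGCT rose from 0.828, 0.648 and 0.756 FPKM to 3.29, 3.92 and 4.01 FPKM (2.32, adjusted p = 8.07e-05). Both genes were higher in each of the 6 treated libraries than in any untreated library. ASTN2, which regulates adhesion of migrating neurons, rose from 0.329, 0.366 and 0.313 FPKM to 2.13, 1.8 and 2.02 FPKM (2.56, adjusted p = 3.44e-05). SLC8A1, a sodium-calcium exchanger, had 0.243, 0.366 and 0.333 FPKM untreated and 0.994, 1.11 and 1.04 FPKM after H2O2 (1.73, adjusted p = 0.000321). GPHN, the gephyrin scaffold, rose by 1.36, EPHB1 by 1.23, HIVEP3 by 1.15 and SLC4A4 by 1.05.

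By function, and without untreated ATG7 KO replicate 1, 15 of 30 adhesion and guidance genes fell and 5 rose in ATG7 KO cells (median -0.69), where 28.6% of all genes were lower and 29.8% higher. Cytoskeletal and scaffold genes had 18 of 29 lower and 4 higher (-0.76), matrix genes 9 of 15 lower and 1 higher (-0.57) and metabolic genes 8 of 12 lower and 0 higher (-0.65). Signalling genes had 15 of 29 lower and 4 higher (-0.40) and transcription genes 7 of 21 lower and 6 higher (-0.31). Channels had 4 lower and 4 higher of 12 (-0.09), and genes in no list 9 lower and 7 higher of 32 (0.02). With all libraries the lower counts were 8 of 28, 8 of 29, 4 of 15, 5 of 12, 6 of 28, 3 of 20, 2 of 12 and 3 of 32 in the same order. Of all genes 12.4% were lower in that fit.

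**Figure D4:**
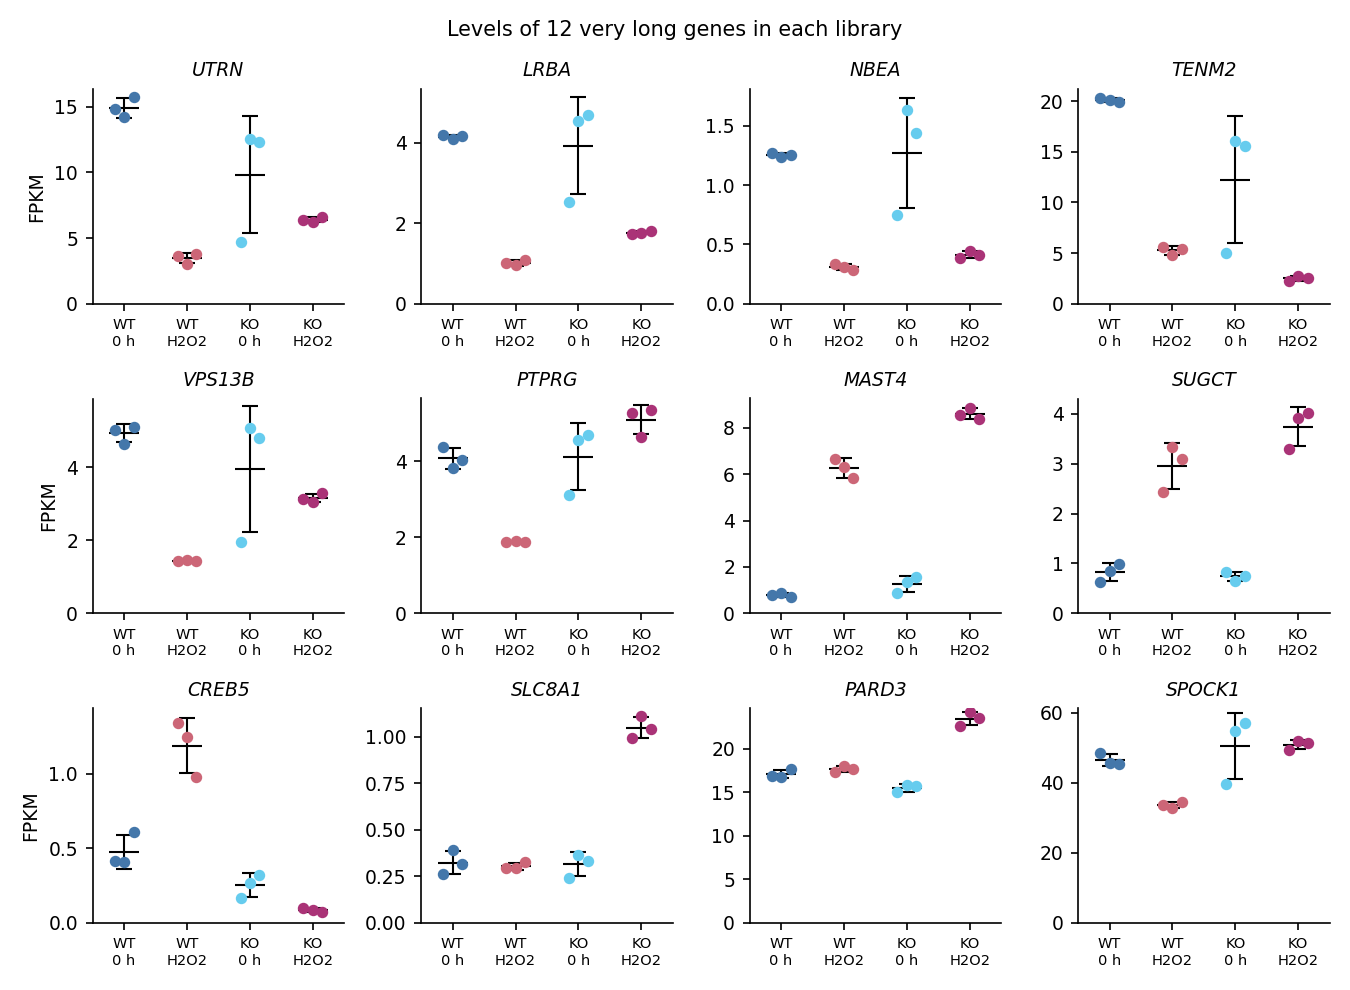
Level (FPKM) of 12 very long genes in each library, with WT and ATG7 KO cells untreated (0 h) or after H2O2. Points are libraries in order of replicate, bars the group mean and whiskers the SD (n = 3). UTRN, LRBA, NBEA, TENM2 and VPS13B are lower in treated WT cells and lowest of their untreated group in ATG7 KO replicate 1, and MAST4 and SUGCT are higher in all treated libraries.

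Between genotypes, the comparison of H2O2-treated cells rests on groups whose libraries were alike. Of 179 long genes tested, 63 were higher and 48 lower in ATG7 KO than in WT cells, against 27.7% higher and 27.9% lower of all 15909 genes. This was 35.2% higher and 26.8% lower, and other genes in the same FPKM classes had 24.9% and 28.1%. The median was 0.14, and -0.16 in those classes. Among the 94 genes of 1 FPKM or more 46 were higher and 24 lower (median 0.26), where others were higher in 34.3% and lower in 29.2% (median 0.034). The class of 200 to 500 kb had 50.3% higher and 14.6% lower. With a correction for exonic length the median was -0.0236.

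PDE4D, a cAMP phosphodiesterase of 1553 kb on chromosome 5, was highest against WT in treated ATG7 KO cells among genes with a mean above 1 FPKM in at least 1 group. Its level was 1.9, 1.82 and 2.08 FPKM against 0.611, 0.57 and 0.499 FPKM in treated WT cells (log2 fold change 1.78, standard error 0.10, adjusted p = 1.3e-16). It was also higher untreated, at 0.881, 1.07 and 1.08 against 0.296, 0.243 and 0.269 FPKM (1.91, adjusted p = 0.000342). SLC8A1 was higher by 1.78, MDGA2, a synaptic adhesion regulator, by 1.67, SLC4A4 by 1.57 and LINGO2, a leucine-rich repeat membrane protein, by 1.44 on the log2 scale. PTPRG, a receptor phosphatase, had 5.27, 4.64 and 5.33 FPKM against 1.88, 1.91 and 1.86 FPKM (1.42, adjusted p = 7.11e-19). Also higher were TRHDE, a membrane peptidase that inactivates thyrotropin-releasing hormone, by 1.35 and ADGRL2, an adhesion G protein-coupled receptor, by 1.30.

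By the same measure CREB5 was lowest against WT in treated ATG7 KO cells. It had 0.1, 0.0834 and 0.0741 FPKM against 1.34, 1.25 and 0.981 FPKM in treated WT cells, 13.8-fold lower (log2 fold change -3.79, standard error 0.19, adjusted p = 1.19e-17). ADAMTSL1 had 1.14, 1.26 and 1.09 FPKM against 4.44, 4.05 and 4.33 FPKM (-1.89, adjusted p = 1.73e-20). KIRREL3, an immunoglobulin-type adhesion protein, was lower with a log2 fold change of -1.70, SLIT3, a secreted guidance ligand, with -1.23, DPYD with -1.14, TENM2 with -1.06, SMYD3 with -0.93 and RUNX1 with -0.72. Adhesion genes were among those named at both ends. Their list had 10 of 26 higher and 8 lower, where 27.7% of all genes were higher and 27.9% lower. All 3 tested receptor phosphatases were higher, PTPRK at 36.7, 37.9 and 37.7 against 20.8, 20.9 and 21.9 FPKM.

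In untreated cells few genes passed. With all libraries 18 of 180 were lower and 10 higher in ATG7 KO cells, where 3.28% of all 15357 genes were lower and 4.42% higher, and the median was -0.16. Without untreated ATG7 KO replicate 1, 64 of 186 were lower and 43 higher, where 17.9% of all 15848 genes were lower and 18.2% higher, and the median was -0.07. Among the 94 genes of 1 FPKM or more 30 were then lower and 25 higher, with a median of 0.0104. Other protein-coding genes at that level were lower in 21.9% and higher in 21.8%. RGS7, a regulator of G protein signalling, had 0.542, 0.545 and 0.629 FPKM in ATG7 KO and 2.52, 1.79 and 1.31 FPKM in WT cells (log2 fold change -1.71, adjusted p = 0.00714). MARCHF1, a ubiquitin ligase that the deposited table lists as 1-Mar, had 0.465, 0.689 and 0.544 against 1.83, 1.88 and 1.72 FPKM (-1.68, adjusted p = 0.000872). KAZN, a desmosome-associated protein, had 0.469, 0.564 and 0.546 against 1.36, 1.63 and 1.38 FPKM (-1.47, adjusted p = 0.000728), and KIRREL3 had -1.45. By the rule for naming genes, the libraries of the genotypes do not overlap for these genes, replicate 1 included. Lower values were also seen for NCAM2 (-1.30), SLIT3 (-0.96), RBMS3 (-0.88) and FAM155A (-0.58). Higher in untreated ATG7 KO cells were TMEM132D, a membrane protein, with 0.943, 1.31 and 1.74 against 0.365, 0.254 and 0.111 FPKM (2.45, adjusted p = 0.00708), PDE4D, TRHDE (1.34), FGGY, a carbohydrate kinase (1.17), SYT1, a calcium sensor of exocytosis (0.92), and NEGR1 (0.80).

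Whether H2O2 acted differently in the genotypes was tested as an interaction over all 12 libraries. A positive value means that the change was higher in ATG7 KO than in WT cells. Of 190 long genes 26 were higher and 7 lower, where 7.02% of all 16856 genes were higher and 7.01% lower. The median difference was 0.28, against -0.16 for other genes in the same FPKM classes. The weakest classes pull the latter value down, since other genes under 0.1 FPKM had a median of -0.83. Among the 94 genes of 1 FPKM or more 20 were higher and 4 lower, with a median of 0.34. Others at that level were higher in 9.77% and lower in 8.24%, with a median of -0.0012. Without untreated ATG7 KO replicate 1, 52 of 192 long genes were higher and 21 lower, where 17.8% of all 17543 genes were higher and 16.3% lower. The median was then 0.22, and 0.18 for the 94 genes of 1 FPKM or more, against 0.037 for others at that level. The class of 200 to 500 kb had 18.8% higher and 2.41% lower with all libraries, and of the 31 genes above 1000 kb 0 passed in either direction. With a correction for exonic length the median was -0.0109.

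ASTN2 and SLC8A1 carried the largest positive differences among genes with a mean above 1 FPKM in at least 1 group. Both reached that mean only in treated ATG7 KO cells, the group that makes the difference positive. SLC8A1 had 0.264, 0.389 and 0.316 FPKM in untreated and 0.293, 0.293 and 0.324 FPKM in treated WT cells, which overlap, while all treated ATG7 KO libraries were above its untreated ones. The difference of responses was 1.83 (standard error 0.23, adjusted p = 0.000228). For ASTN2, with 0.561, 0.597 and 0.503 FPKM untreated and 0.711, 0.846 and 0.926 FPKM treated in WT cells, it was 1.98 (standard error 0.20, adjusted p = 5.54e-05). Other genes fell in WT cells and did not pass the test in ATG7 KO cells with all libraries. TTC28, a large tetratricopeptide repeat protein, went from 3.93, 4.58 and 4.38 FPKM to 1.69, 1.61 and 1.93 FPKM in WT cells, and from 1.62, 3.34 and 3.09 FPKM to 3.01, 3.16 and 3.04 FPKM in ATG7 KO cells, a difference of 1.49 (adjusted p = 0.0023) that was 1.24 without replicate 1. PTPRG had a difference of 1.42, VPS13B of 1.45 (1.14 without replicate 1), CCDC171 of 1.25 and LINGO2 of 0.91. With all libraries VPS13B had -1.78 in WT and -0.33 in ATG7 KO cells, where untreated replicate 1 was the lowest of its group. SLC4A4 and ADGRL2 fell in WT and rose in ATG7 KO cells. SLC4A4 went from 1.46, 1.46 and 1.56 to 1.1, 0.851 and 0.955 FPKM in WT cells and from 1.2, 1.5 and 1.48 to 2.92, 2.88 and 2.88 FPKM in ATG7 KO cells, a difference of 1.68 (adjusted p = 3.97e-05).

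CREB5 had the opposite pattern, and its mean was above 1 FPKM only in treated WT cells. It rose in WT cells from 0.413, 0.41 and 0.608 FPKM to 1.34, 1.25 and 0.981 FPKM and fell in ATG7 KO cells from 0.166, 0.269 and 0.324 FPKM to 0.1, 0.0834 and 0.0741 FPKM. The difference of responses was -2.88 (standard error 0.37, adjusted p = 0.000247). DPYD, SMYD3, CEP112 and RAD51B, a recombination repair gene, fell in both genotypes and more in ATG7 KO cells, with differences of -1.17, -0.97, -0.92 and -0.91. Over the 172 genes tested in both responses without untreated ATG7 KO replicate 1, 67 fell in both genotypes, 17 rose in both, 31 fell in WT and did not pass the test in ATG7 KO cells, 8 fell in WT and rose in ATG7 KO cells and 2 rose in WT and fell in ATG7 KO cells. With all libraries 33 fell in both, 12 rose in both and 70 fell in WT and did not pass in ATG7 KO cells. A further 3 fell in WT and rose in ATG7 KO cells, and 1 rose in WT and fell in ATG7 KO cells. Shares of all genes in these joint classes were not computed. Taken singly, 30.1% of all genes fell and 30.9% rose in WT cells. In ATG7 KO cells 28.6% fell and 29.8% rose without that library, and 12.4% and 13.6% with it. Over the 94 genes of 1 FPKM or more the log2 fold changes of the genotypes had a Pearson r of 0.794 without and 0.748 with that library, a description across genes that share libraries.

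The most abundant long genes had no common course over the groups. SPOCK1, at 48.5, 45.6 and 45.3 FPKM in untreated and 33.5, 32.8 and 34.5 FPKM in treated WT cells, was at 39.6, 54.7 and 57.1 and then 49.3, 51.9 and 51.3 FPKM in ATG7 KO cells. PTPRK, at 19.5, 18.5 and 18.1 FPKM in untreated WT cells, was highest in treated ATG7 KO cells. PARD3 had 16.9, 16.8 and 17.7 FPKM untreated and 17.3, 18 and 17.7 FPKM treated in WT cells, and 15, 15.9 and 15.7 and then 22.7, 24.2 and 23.6 FPKM in ATG7 KO cells, a difference of responses of 0.55 (adjusted p = 0.000855). ADK, adenosine kinase, had a log2 fold change of 0.0096 with H2O2 in WT cells (adjusted p = 0.905). FAF1, a ubiquitin-binding protein, fell by 0.34 in WT cells and had -0.0030 in ATG7 KO cells (adjusted p = 0.984).

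A few long genes were near 0 in 1 group and are given by their reads. They were chosen after their values were seen and pass the count filter through the group in which they are high, so no test is given. DLGAP1, a postsynaptic scaffold of 959 kb, had 0, 0 and 0 reads in untreated WT, 61, 36 and 48 reads in treated WT, 0, 0 and 1 reads in untreated ATG7 KO and 1, 1 and 1 reads in treated ATG7 KO libraries. It was thus read mainly in treated WT cells, at least 50.1-fold higher than untreated (floor of 3 reads over the group). GRM8, a metabotropic glutamate receptor, had 0, 1 and 0 reads in untreated and 22, 21 and 36 reads in treated WT libraries. The ratio of 81.9 rests on 1 read in the untreated group. In ATG7 KO cells GRM8 had 3, 2 and 2 and then 35, 26 and 23 reads. ELMO1, which acts with DOCK1 on Rac, had 0, 0 and 0 reads in untreated WT and 26, 23 and 31 reads in untreated ATG7 KO libraries, at least 26.8-fold higher by the same floor. The floors cover counting error only.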

How the data were processed

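RNA was sequenced from 12 libraries (4 groups of 3 biological replicates). The authors deposited read counts per gene and FPKM values in separate tables. The deposited counts are raw, and the deposited FPKM values are counts scaled by the authors to exonic length and library size. The submitters' processing notes name HISAT2 2.0.5 and featureCounts 1.5.0-p3. Whether strand was used in counting, and how multi-mapped reads were handled, is not given in the sources used here. Groups were taken from the sample labels. The members and lists were chosen with earlier results of these data known.

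Counts were tested with edgeR 4.0.16 in R 4.3.3 (filterByExpr with a minimum count of 10, TMM scaling, robust quasi-likelihood test, Benjamini-Hochberg adjustment over all genes tested, threshold 0.01). Each comparison of groups was fitted on its own 6 libraries and the difference of responses on all 12. Other protein-coding genes were taken in classes of mean FPKM and weighted to the members' classes. Alternatives were DESeq2 1.42.0, upper quartile and RLE scaling, no filter, a stricter filter, limma 3.58.1 on log2 FPKM with pseudocounts of 1 and 0.1, an offset for exonic length (lowess span 0.3), other span limits, a replicate block and leaving out each library. Genes are named if they are among the 10 highest in mean FPKM, among the 8 highest or 8 lowest log2 fold changes of a comparison (adjusted p under 0.01, no overlap of replicates, mean above 1 FPKM in at least 1 group), next to the span limit, the longest, or the most abundant of their list. A gene can meet the limit of 1 FPKM only through the group in which it is high. On simulated counts for the WT response (15226 genes) edgeR recovered 94% of log2 changes of 1 and 100% of changes of 2, with 2 false calls. There 100 genes were changed at each size, evenly up and down, none of them weakly expressed, with the same dispersion for all genes. These figures therefore do not cover weak genes, a response as wide as the observed one or a library that stands apart. Promoter sequences are from RefSeq on GRCh38.p14.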

Additional observations from a re-analysis of the deposited data

Results flagged for a closer look

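For 23 named long genes the H2O2 response differed between the genotypes in the interaction test of edgeR over all 12 libraries (adjusted p under 0.01). Values are the log2 fold change in ATG7 KO cells minus that in WT cells, with all libraries. Each gene also passed without untreated ATG7 KO replicate 1, with a value that is not listed here. Higher in ATG7 KO cells were ASTN2 with 1.98, SLC8A1 with 1.83, SLC4A4 with 1.68, TTC28 with 1.49, VPS13B with 1.45, PTPRG with 1.42, ADGRL2 with 1.34, CCDC171 with 1.25, KCNQ5 with 1.13 and MARCHF1 with 1.07. Smaller differences in this direction were found for GPHN with 0.96, LINGO2 with 0.91, PTPRM with 0.89, CDKAL1 with 0.70, CDK14 with 0.67, FAM155A with 0.61, PARD3 with 0.55 and MECOM with 0.53. Lower in ATG7 KO cells were CREB5 with -2.88, DPYD with -1.17, SMYD3 with -0.97, CEP112 with -0.92 and RAD51B with -0.91.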

How the results depend on the processing

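The direction of the median in WT cells held under each alternative run, from -0.25 to -0.67 in log2 fold change. It was -0.38 with no filter, -0.25 and -0.49 with limma at pseudocounts of 1 and 0.1, -0.47 with the offset for exonic length and -0.66 for genes of 1 FPKM or more. Leaving out 1 library gave -0.67 to -0.61, with 104 to 108 lower and 25 to 27 higher genes. In ATG7 KO cells 23 and 25 genes were lower with limma at the same pseudocounts, and leaving out 1 library gave medians of -0.40 to -0.16, 17 to 86 lower and 10 to 32 higher, with 17 lower without treated ATG7 KO replicate 1 and 86 without untreated ATG7 KO replicate 1. The offset together with the latter gave 86 lower and 34 higher.

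In untreated cells (18 lower, 10 higher) DESeq2 gave 37 lower and 17 higher, no filter 17 higher, the stricter filter 6 higher, all 12 libraries in 1 fit 40 and 22, limma 11 and 5 at both pseudocounts, the offset 21 higher, a span limit of 800000 bases 6 higher of 64 and genes of 1 FPKM or more 5 and 2. The offset without replicate 1 gave 61 and 46. Leaving out 1 library gave medians of -0.31 to -0.07, 6 to 64 lower (6 without untreated WT replicate 2) and 1 to 43 higher (1 without untreated WT replicate 1).

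In treated cells the median was 0.10 with upper quartile scaling, 0.0433 with no filter, 0.0453 with limma at a pseudocount of 1, 0.19 at a span limit of 400000 bases, 0.26 for genes of 1 FPKM or more and -0.0236, reversed, with the offset. All 12 libraries in 1 fit gave 30 lower and 41 higher. Leaving out 1 library gave medians of 0.0876 to 0.18, 41 to 46 lower and 57 to 62 higher. For the difference of responses DESeq2 gave 11 lower and 41 higher, no filter 11 and 49, the offset 19 lower, a span limit of 400000 bases 7 lower of 305 and genes of 1 FPKM or more 20 higher. The median was 0.12 with limma at a pseudocount of 1, 0.0854 at 800000 bases and, reversed, -0.0109 with the offset and -0.0040 with the offset without replicate 1, where 37 were lower. Leaving out 1 library gave medians of 0.22 to 0.42, 5 to 21 lower and 13 to 52 higher. The cause was not tested for any of these.

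For named genes 2241 results under alternative settings were compared with the main fit, from 136 pairs of gene and comparison. The call was unchanged in 2066, no longer passed in 139 and passed only under the alternative in 33. Single genes reversed in 3 cases: ERC1 in WT cells with the offset (0.044), and SPOCK1 and PTPRM in ATG7 KO cells without untreated replicate 1 (-0.15 and -0.20). Over all libraries left out in turn PTPRM ranged from -0.2023 to 0.1259 in ATG7 KO cells. Replicate numbers did not pair the samples, with correlations of deviations of -0.043 to 0.098. With the replicate block 10 genes were lower and 2 higher in untreated cells, 108 and 27 in the WT response, 30 and 17 in the ATG7 KO response, 47 and 61 in treated cells and 7 and 23 for the difference of responses. In the fit of all 12 libraries 127 genes did not pass the count filter, 26 of them without a read in any library.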
